A study of Homo sapiens with 5 samples.

Results

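The 9 transcription factors described here are known from the intestinal epithelium. They were followed in single SW480 cells from zebrafish xenografts and were listed by gene symbol, with earlier results of these data known. They were CDX1, CDX2, SOX9, SOX4, KLF5, HNF4A, GATA6, ELF3 and MYB, 9 of 21199 human genes listed in any library. SW480 is a long-established line of human colorectal cancer cells. The cells carried GFP from a lentiviral vector, were injected into zebrafish embryos without any other treatment, and were recovered from pooled, dissected tumors as living, GFP-positive single cells at 1 or 4 days post injection (dpi). Each was sorted into 1 well of a 384-well plate for SORT-seq, in which unique molecular identifiers (UMIs) count RNA molecules. Libraries 6, 7 and 8 (1 plate each) were of 1 dpi and libraries 10 and 11 of 4 dpi. Tumors were collected as a pool, per the study's methods. Whether the plates of a time point were filled from separate pools is not stated in the sources used here, so p-values measure the spread between plates, which may be technical.

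In the intestine, Wnt ligands from the crypt base stabilize β-catenin, which acts with TCF/LEF factors to keep stem and progenitor cells dividing. Notch receptors, once cleaved, act with RBPJ to switch on HES and HEY repressors and hold cells back from the secretory fate. The factors described here stand at different points of this program. The CDX homeobox proteins set intestinal identity, SOX9, SOX4 and MYB belong to crypt stem and progenitor cells, KLF5 to dividing crypt cells, and HNF4A, GATA6 and ELF3 to the differentiation and upkeep of the epithelium.

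Of 384 wells per plate on 5 plates, 826 in all held more than 2000 genes and under 25% mitochondrial UMIs (533 at 1 dpi and 293 at 4 dpi). The cells of a library held 3794315 to 7510250 human UMIs, and the median cell 18836 to 36219.5, with the lowest median in library 11. The cells had the markers of an epithelial line, with EPCAM and KRT8 in 100% of the cells of every library. Of 21 markers of blood, stromal and endothelial cells, 18 were listed, and they summed to 44.5 to 58.8 per 1000000 UMIs (CPM, counts per 1000000) in every library. Among them COL1A2 was at 0 UMIs in every library, while LUM was found in 29.8% to 39.9% of the cells of a library, ITGAM in 15.5% to 16.7% at 1 dpi and HBA1 in up to 19.0%. Of the 5 that could be tested between time points, ITGAM (-2.53) and HBA1 (-1.16) were called lower at 4 dpi and COL1A1 (2.14) higher, and LUM was higher in cells high in Notch markers (0.61), in the comparisons described further on. The part of these genes in the factors' differences was not tested. The plates share the same 384 well barcodes by design, so a barcode found in several libraries does not mark the same cell. Wells that held 2 cells were not searched for.

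The factors' genes lie on several chromosomes of GRCh38, the build that the submitters' processing notes name (hg38). Positions and promoters are those of RefSeq on GRCh38.p14. CDX1 spans chr5:150166778-150184558, CDX2 chr13:27960918-27969315 and SOX9 chr17:72121020-72126416. SOX4 spans chr6:21593751-21598619, KLF5 chr13:73054976-73077538 and HNF4A chr20:44355699-44434596. GATA6 spans chr18:22169589-22202528, ELF3 chr1:202010587-202017183 and MYB chr6:135181308-135219172. RefSeq promoters were matched for 7 of the 9 genes, and CDX1 and SOX9 were not matched.

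The 250 bases before the start of 4 genes are printed because MYB, SOX4 and CDX2 moved with the Wnt markers and ELF3 with the Notch markers in the comparisons of cells that follow. Capitals mark 3 motifs, searched on both strands, whose matches did not overlap. The core of a TCF/LEF site was searched as CTTTGA, the core of an RBPJ site as TGGGAA, and the site bound by HES proteins as CACGAG.
MYB (chr6:135181058-135181307, plus strand): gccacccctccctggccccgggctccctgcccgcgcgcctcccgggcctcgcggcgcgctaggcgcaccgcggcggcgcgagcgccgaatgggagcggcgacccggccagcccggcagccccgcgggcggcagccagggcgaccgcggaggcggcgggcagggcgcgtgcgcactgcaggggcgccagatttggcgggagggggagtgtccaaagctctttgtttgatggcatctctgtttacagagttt
SOX4 (chr6:21593501-21593750, plus strand): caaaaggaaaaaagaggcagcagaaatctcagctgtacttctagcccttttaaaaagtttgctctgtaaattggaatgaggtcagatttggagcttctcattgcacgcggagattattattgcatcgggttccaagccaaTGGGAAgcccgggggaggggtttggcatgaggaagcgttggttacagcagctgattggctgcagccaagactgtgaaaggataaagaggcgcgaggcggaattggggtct
CDX2 (chr13:27969316-27969565, minus strand): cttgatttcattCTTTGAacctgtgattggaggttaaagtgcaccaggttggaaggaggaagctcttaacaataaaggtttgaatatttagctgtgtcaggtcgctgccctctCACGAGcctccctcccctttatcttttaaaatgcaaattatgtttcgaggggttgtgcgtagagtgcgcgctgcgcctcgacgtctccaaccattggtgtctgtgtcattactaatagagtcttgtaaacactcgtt
ELF3 (chr1:202010337-202010586, plus strand): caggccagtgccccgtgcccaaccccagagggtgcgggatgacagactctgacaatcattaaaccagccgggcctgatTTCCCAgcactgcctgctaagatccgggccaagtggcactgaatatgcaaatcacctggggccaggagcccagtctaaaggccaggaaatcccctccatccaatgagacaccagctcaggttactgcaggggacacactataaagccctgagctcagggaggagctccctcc
The CDX2 window held CTTTGA 238 bases and CACGAG 137 bases before the start. The SOX4 window held TGGGAA 110 bases before the start, and the ELF3 window held its reverse complement 172 bases before it. The MYB window held none of the 3 motifs as spelled here. Other spellings of these sites were not searched in any window. Among 35116 human promoter windows of this length, 11.2% held the TCF/LEF core, 20.8% the RBPJ core and 5.58% the HES site, so these matches describe the windows and do not mark sites in use.

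CDX1, a close relative of CDX2, was all but absent. It was counted by 1 UMI in 1 of 826 cells, in library 7. In library 6, where 0 of 228 cells had a UMI, the exact 95% interval allowed a share of up to 1.60%, which limits cells with a captured UMI and not cells that express the gene. It was too low to be tested, and 8 of the 9 factors passed the filter on low counts. KLF5 was found in 96.7% of the 826 cells, SOX9 in 81.0%, ELF3 in 76.4%, SOX4 in 72.5%, HNF4A in 54.0%, CDX2 in 31.1%, MYB in 29.9% and GATA6 in 23.1%. In wells with under 200 genes, 60 to 133 per library, KLF5 was found in 3 to 10 wells and each other factor in 4 or fewer. A cell type that should lack these genes was not on the plates, so the background of free RNA in cells could not be measured.

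MYB, the progenitor factor, rose most of the 8 between 1 and 4 dpi, and GATA6 rose too, whereas SOX9, KLF5, HNF4A and ELF3 fell. UMIs were summed per library over the cells, scaled (TMM) and tested with edgeR, and levels are given as CPM after this scaling. With 27.6% of 12646 genes called at an adjusted p under 0.05 (13.4% higher, 14.2% lower), 6 of 8 factors called is a larger share, over a small number of genes. Their median log2 difference was -0.45, beside 0.00 over all genes tested. In such sums, fewer cells with the RNA and less RNA per cell cannot be told apart.

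MYB had 17.5, 12.1 and 10.3 CPM at 1 dpi (libraries 6, 7 and 8, the order used throughout) and 47.1 and 45.0 at 4 dpi (libraries 10 and 11). Both libraries of 4 dpi lay far above all 3 of 1 dpi. The log2 difference was 1.75 ± 0.19 (SE, adjusted p = 1.05e-05), a rise of 3.37-fold that ranked 119 among the rises of 12646 genes. Within the first flow cell (libraries 6, 7 and 10) it was 1.69, and within the other (libraries 8 and 11) 2.13.

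GATA6, a zinc finger factor of endoderm and gut epithelium, had 9.63, 14.0 and 9.66 CPM at 1 dpi and 19.9 and 16.6 at 4 dpi. The groups did not overlap, but the gene rested on 46 to 79 UMIs per library. The log2 difference was 0.73 ± 0.22 (adjusted p = 0.0233). It was not called with DESeq2 (adjusted p = 0.0610) or without library 6, 8 or 10 (0.0812, 0.0676 and 0.155), and after thinning to 5000 UMIs per cell it was at 0.23 (0.806).

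SOX9, an HMG-box factor of crypt stem and Paneth cells, had 196, 181 and 186 CPM at 1 dpi and 137 and 107 at 4 dpi. All libraries of 1 dpi were higher, and library 11 was the lowest. The log2 difference was -0.62 ± 0.11 (adjusted p = 0.000833). ELF3, an epithelial ETS factor, had 180, 296 and 230 CPM at 1 dpi and 158 and 131 at 4 dpi, with library 7 the highest and no overlap. Its log2 difference was -0.70 ± 0.16 (adjusted p = 0.00420), with an adjusted p of 0.0616 by DESeq2 and of 0.129 (-0.40) after thinning.

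KLF5 had 690, 759 and 695 CPM at 1 dpi and 551 and 548 at 4 dpi, so the libraries did not overlap and those of 4 dpi were nearly equal. Its log2 difference was -0.38 ± 0.09 (adjusted p = 0.00479). With a mitochondrial maximum of 15% it was -0.19 (adjusted p = 0.195). HNF4A, a nuclear receptor of enterocytes, had 39.2, 41.6 and 51.0 CPM at 1 dpi and 30.0 and 30.7 at 4 dpi, again without overlap. Its log2 difference was -0.53 ± 0.15 (adjusted p = 0.0160). Leaving out library 8, 10 or 11 ended the call (adjusted p 0.0638, 0.0650 and 0.0523), as did thinning (0.174).

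CDX2 and SOX4 did not pass the test. CDX2 had 23.3, 17.3 and 31.5 CPM at 1 dpi and 9.57 and 20.8 at 4 dpi, and library 11 lay within the range of 1 dpi. Its log2 difference was -0.66 ± 0.28 (adjusted p = 0.0932). Single libraries moved this value widely, to -0.20 without library 10 (adjusted p = 0.642) and -0.43 without library 8 (0.293), and to -0.83 without library 7 (0.0354) and -1.32 without library 11 (0.00556). With the flow cell as a term it was -0.83 (0.00575). SOX4 had 136, 139 and 132 CPM at 1 dpi and 156 and 166 at 4 dpi. Its libraries did not overlap, as was the case for 7 of the 8 factors and for 54.6% of all genes, and the log2 difference was 0.24 ± 0.10 (adjusted p = 0.0692).

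**Figure D1:**
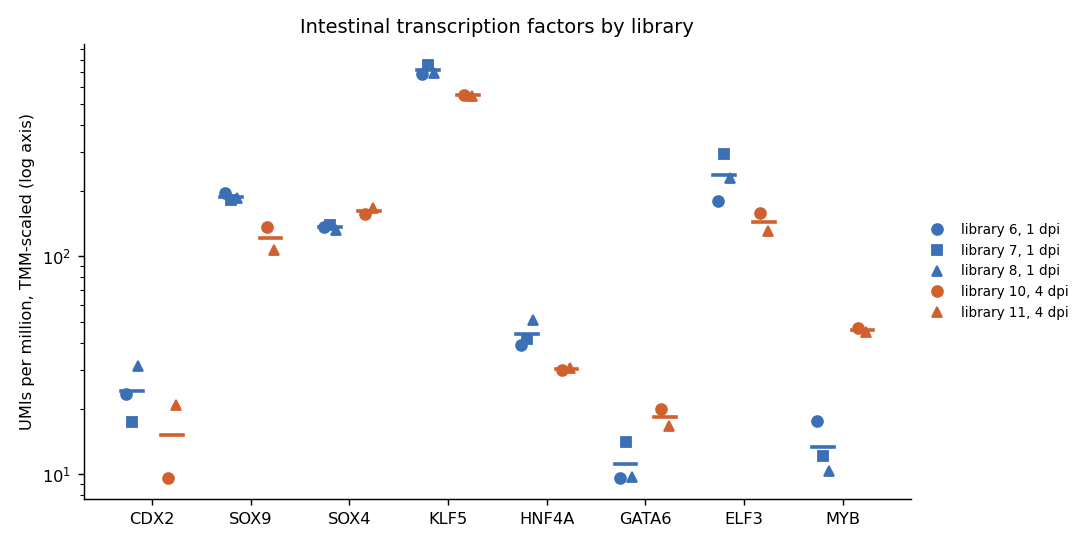
CPM (TMM-scaled, log axis) of the 8 tested factors in each library, with symbols for the libraries, colors for the time points and bars at the group means. MYB lies between 10.3 and 17.5 at 1 dpi and at 45.0 and 47.1 at 4 dpi, and only CDX2 has overlapping groups.

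These differences were set beside the state of the cells. Notch markers summed to 906 to 1312 CPM in the libraries of 1 dpi and 140 to 176 at 4 dpi. Immediate early genes, which respond within minutes to stress and growth signals, summed to 4144 to 5970 and 3640 to 3834. Their list of 16 also held the heat shock genes HSPA1A and HSPA1B. A limit of 212 CPM of Notch markers was set on the cells of 4 dpi. It kept 123 of 228, 67 of 142 and 89 of 163 cells at 1 dpi, and 101 of 132 and 119 of 161 at 4 dpi. Cells high in Notch markers, where ELF3 and SOX9 were also higher, were thus left out more often at 1 dpi. The values of these factors below the limit are therefore not a separate result. In the cells with at most 212 CPM of Notch markers, the fall of SOX9 and ELF3 was not seen, with log2 differences of 0.03 (adjusted p = 0.919) and 0.51 (higher at 4 dpi, adjusted p = 0.0143). In the same cells the rise of MYB was 1.46 (adjusted p = 0.000121), the rise of GATA6 0.96 (0.0299) and the difference of KLF5 -0.34 (0.0316). In the cells low in immediate early genes, ELF3 was at 0.35 (adjusted p = 0.109) and SOX9 at 0.01 (0.977), while MYB was at 1.64 (1.68e-05). That limit kept 105 of 228, 61 of 142 and 75 of 163 cells at 1 dpi, and 81 of 132 and 91 of 161 at 4 dpi. Across cells, ELF3 and SOX9 were correlated with the immediate early sum (mean r 0.60 and 0.36). Their values below this limit are therefore not a separate result either. Within cells low in S and G2/M genes, MYB was also higher at 4 dpi than at 1 dpi (2.56, adjusted p = 0.000305). S and G2/M genes held 0.487% to 0.577% of UMIs in the libraries of 1 dpi and 0.713% to 0.741% at 4 dpi.

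The share of cells with a UMI was compared after each cell had been thinned to 5000 UMIs. MYB was found in 7.08%, 4.29% and 5.00% of the cells at 1 dpi and in 10.8% and 16.4% at 4 dpi. The share of CDX2 was 11.5%, 15% and 11.9% at 1 dpi (mean 12.8% ± 1.92, SD, n = 3), and 6.15% and 7.55% at 4 dpi. For both factors the time points did not overlap, but after thinning to 3000 UMIs those of CDX2 did (means 5.53% and 4.38%). Mean shares of SOX9 were 49.0% ± 3.39 (SD, n = 3) at 1 dpi and 38.6% ± 7.43 (n = 2) at 4 dpi, and those of KLF5 86.6% ± 1.15 and 79.5% ± 1.44. The two-sided exact permutation p was 0.1 for these 4 factors, the smallest that 3 libraries against 2 allow (10 splits). SOX4 went from 35.1% ± 4.13 to 44.3% ± 0.57 (exact permutation p = 0.2), and HNF4A, GATA6 and ELF3 overlapped. Both unthinned and at 3000 UMIs, SOX9 overlapped and HNF4A did not. Overlap of these shares was not counted over all genes. Unthinned, at 1 and 4 dpi, MYB was in a mean of 22.6% and 42.6% of cells, CDX2 in 36.4% and 21.7%, and SOX4 in 72.8% and 72.3%. A thinned cell held a mean of 2.39 to 2.68 of the 9 factors in each library.

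**Figure D2:**
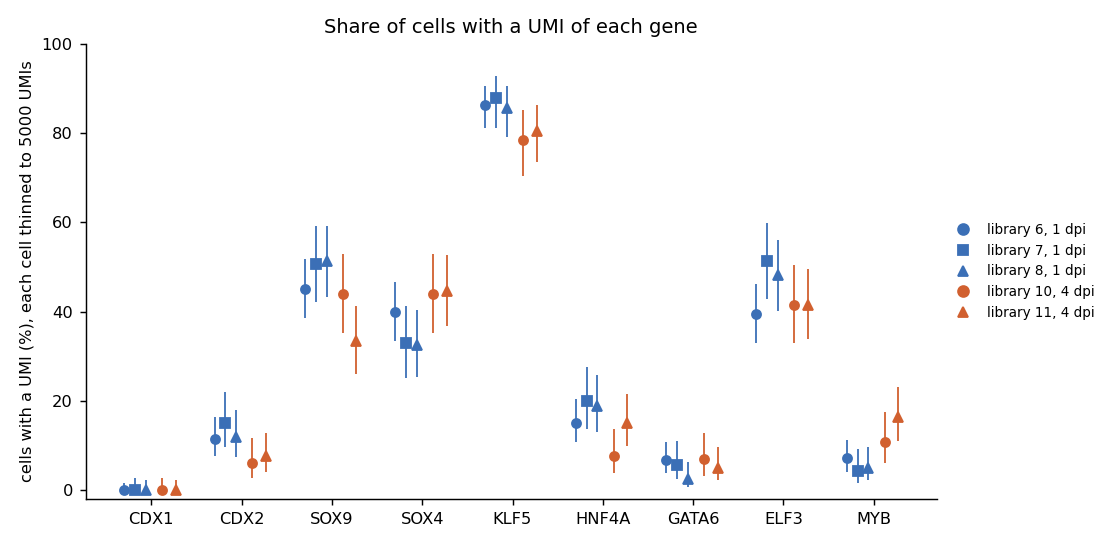
Share of cells with at least 1 UMI of each factor (%) per library after thinning every cell to 5000 UMIs, with exact 95% binomial intervals that cover counting error only. MYB is found in 4.29% to 7.08% of cells at 1 dpi and in 10.8% and 16.4% at 4 dpi, and CDX1 is at 0 in all libraries.

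Notch marker level separated the factors within a library. The cells of each library were ranked by the share of UMIs on 9 Notch markers (HES1, HES4, HES5, HEY1, HEY2, HEYL, NRARP, NOTCH3 and DTX1), and the highest 1 in 3 (Notch-high) was compared with the lowest 1 in 3 (Notch-low), with the library as a block. ELF3, SOX9, GATA6 and KLF5 were higher in Notch-high cells and MYB and SOX4 lower, while CDX2 and HNF4A did not pass the test. Of 10198 genes tested, 46.8% were called (23.8% higher, 23.0% lower), so that 6 of 8 is read against a high background. The median over the 8 factors was 0.46, and over all genes -0.03. Notch-high cells had lower mitochondrial shares (library medians 9.39% to 10.5%, against 11.3% to 15.9%).

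ELF3 had 322, 656, 424, 237 and 205 CPM in Notch-high cells of libraries 6, 7, 8, 10 and 11 and 75.3, 85.4, 82.6, 105 and 98.7 in Notch-low cells. Every Notch-high value was above every Notch-low value, a pattern whose share over all genes was not computed. The log2 difference was 1.95 ± 0.21 (adjusted p = 5.54e-06), or 3.87-fold. SOX9 had 312, 301, 271, 159 and 138 CPM in Notch-high cells and 110, 91.6, 104, 143 and 92.2 in Notch-low cells. It was higher in Notch-high cells of each of the 5 libraries (1.10 ± 0.19 over both time points, adjusted p = 0.000229).

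KLF5 had 686, 823, 821, 675 and 774 CPM in Notch-high cells and 569, 663, 582, 399 and 453 in Notch-low cells (0.52 ± 0.11, adjusted p = 0.00105). It was higher in all 5 libraries, as 22.2% of all genes were. GATA6 was higher in 4 of 5 (0.86 ± 0.26, adjusted p = 0.0129). It was not called without library 6 (adjusted p = 0.0582), with all cells parted at the median (0.0807) or with HES1 left out of the markers (0.0863). MYB moved the opposite way, with 14.9, 6.75, 7.65, 32.3 and 25.1 CPM in Notch-high and 31.1, 22.7, 12.9, 63.5 and 54.9 in Notch-low cells (-1.12 ± 0.19, adjusted p = 0.000240). It was lower in Notch-high cells of every library, as 22.3% of genes were. SOX4 was lower at -0.66 ± 0.20 (adjusted p = 0.0123), a difference carried by the libraries of 1 dpi, and its adjusted p was 0.0679, 0.0706 and 0.0521 without library 6, 7 or 8.

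The Notch split was also a split by immediate early genes. All 16 of these genes were higher in Notch-high cells (median log2 difference 2.18), and they summed to 6699 to 13533 CPM there against 1140 to 1777 in Notch-low cells. When the cells were ranked by Notch markers within strata of the immediate early sum, the sum still differed (5791 to 8634 against 2115 to 3119 CPM), and ELF3 (1.23, adjusted p = 0.000761) and SOX9 (0.77, 0.00121) were still called. KLF5 was then at -0.11 (0.578), GATA6 at 0.06 (0.896), MYB at -0.41 (0.220) and SOX4 at -0.16 (0.446). The part of the immediate early genes in the differences by Notch level, those of ELF3 and SOX9 included, was not tested further.

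The effect of Notch level was not the same at both time points for 3 factors, beside 6.84% of all genes. ELF3 differed by 2.46 ± 0.13 between Notch-high and Notch-low cells at 1 dpi and by 1.11 ± 0.17 at 4 dpi (difference -1.35 ± 0.22, adjusted p = 0.000169). SOX9 differed by 1.53 ± 0.12 and 0.35 ± 0.16 (difference -1.18 ± 0.20, adjusted p = 0.000294). SOX4 was at -1.11 ± 0.14 and 0.05 ± 0.18 (difference 1.16 ± 0.22, adjusted p = 0.00128), and with cells parted at the median its difference was 0.64 (0.0551). It was not called after thinning either (0.112). The marker levels that define the cells also differed, since Notch-high cells held 2112 to 3342 CPM of the markers at 1 dpi and 355 to 412 at 4 dpi.

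Wnt marker level set apart CDX2, and also MYB and SOX4, which were called by Notch level in the opposite direction. The cells were ranked in the same way by 12 Wnt markers (AXIN2, NKD1, NOTUM, APCDD1, RNF43, ZNRF3, LGR5, ASCL2, TCF7, LEF1, SP5 and TNFRSF19). MYB, SOX4 and CDX2 were higher in Wnt-high cells, 3 of 8 factors where 3.58% of 10045 genes were called higher (7.49% in either direction), and none was called lower (3.90% of genes). The median over the 8 factors was 0.65, and over all genes 0.01. Of the 16 genes of the immediate early list, 4 were called lower (ATF3, DUSP1 and the heat shock genes HSPA1A and HSPA1B) and none higher.

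MYB had 26.8, 19.1, 20.2, 88.1 and 80.9 CPM in Wnt-high cells of libraries 6, 7, 8, 10 and 11 and 4.24, 4.59, 4.43, 11.7 and 16.2 in Wnt-low cells. It was higher in all 5 libraries and in Wnt-high cells of 4 dpi most of all. The log2 difference was 2.46 ± 0.23 (adjusted p = 0.000805), or 5.52-fold. SOX4, which acts in progenitors, had 176, 250, 200, 172 and 254 CPM in Wnt-high and 50.3, 59.6, 68.2, 126 and 111 in Wnt-low cells. No Wnt-low value reached a Wnt-high value (1.41 ± 0.22, adjusted p = 0.00723). How many of all genes separate in this way was not computed.

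CDX2 had 37.8, 28.9, 47.1, 9.68 and 27.9 CPM in Wnt-high cells and 6.35, 7.86, 10.6, 10.4 and 12.9 in Wnt-low cells. It was higher in 4 of 5 libraries, with library 10 the exception (1.60 ± 0.36, adjusted p = 0.0286). Without library 6, 7 or 8 the adjusted p was 0.106, 0.0864 and 0.114. SOX9 (0.80 ± 0.23, adjusted p = 0.0711), HNF4A (0.50 ± 0.17, 0.109), KLF5 (-0.70 ± 0.20, 0.0711), GATA6 (-0.79 ± 0.46, 0.321) and ELF3 (0.09 ± 0.19, 0.801) were not called over all 5 libraries. KLF5 was lower in Wnt-high cells of every library, as 12.3% of all genes were (12.3% were higher in all 5).

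**Figure D3:**
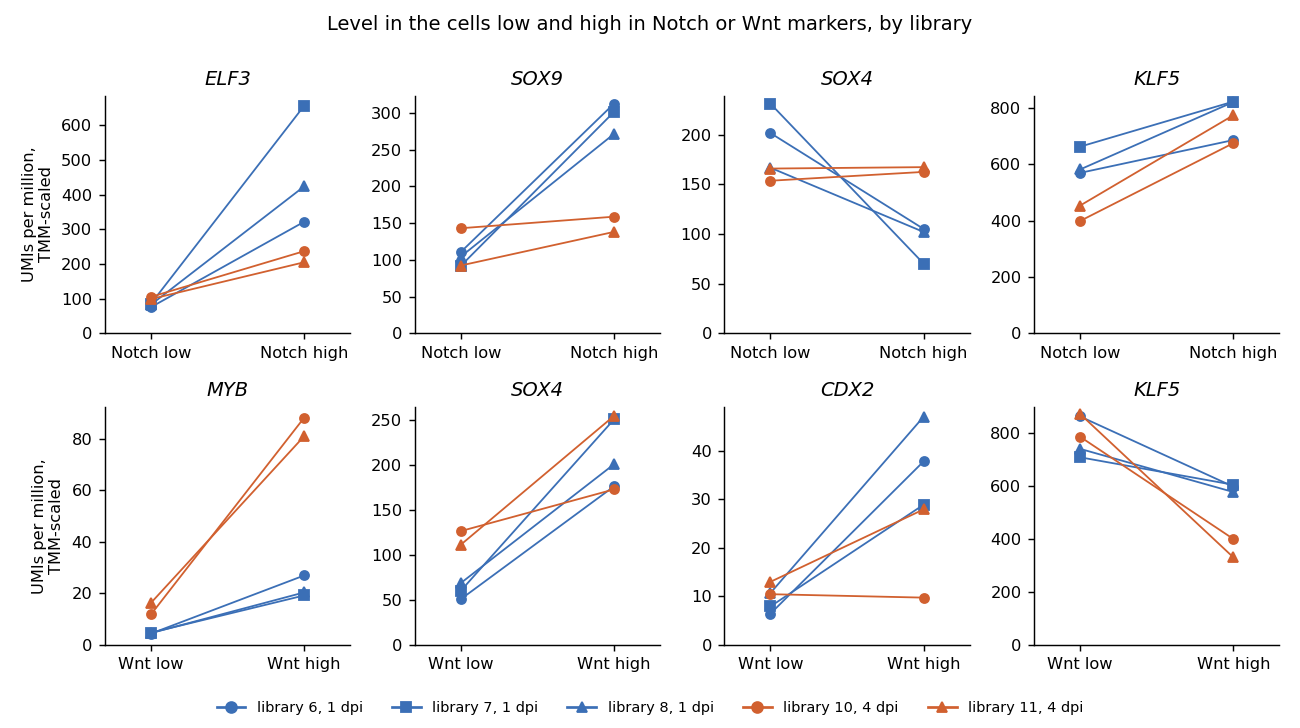
CPM (TMM-scaled) of 6 factors in the cells lowest and highest in Notch markers (upper row) or Wnt markers (lower row), with 1 line per library. ELF3 rises from at most 105 to at least 205 with Notch level, and MYB from at most 16.2 to at least 19.1 with Wnt level.

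For 5 factors the Wnt effect differed between time points, where 27.8% of all genes did. The cells compared also differed in other ways that turned with time. Wnt-high cells had median mitochondrial shares of 12.9% and 14.5% at 4 dpi, against 6.00% and 7.93% in Wnt-low cells, and at 1 dpi 10.1%, 10.8% and 10.4% against 14.2%, 12.2% and 9.95%. Their Notch markers summed to 172 and 81.9 CPM at 4 dpi, against 244 and 209 in Wnt-low cells, and to 1335, 1549 and 1020 against 503, 712 and 842 at 1 dpi. The part of both in the differences by time point was not tested.

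CDX2 differed by 2.21 ± 0.28 at 1 dpi and 0.61 ± 0.39 at 4 dpi (difference -1.59 ± 0.49, adjusted p = 0.0248). Without a library this ran from -2.31 to -1.10, and it was not called without library 6, 8 or 10 (0.0907, 0.0527 and 0.157) or with cells parted at the median (-0.28, 0.720). SOX9 was at 1.27 ± 0.12 and 0.06 ± 0.15 (difference -1.21 ± 0.19, adjusted p = 0.000458), and SOX4 at 1.82 ± 0.15 and 0.82 ± 0.18 (difference -0.99 ± 0.24, 0.00698). The SOX4 difference was -0.62 (0.0793) without library 10 and -0.31 (0.265) with the median. For CDX2, SOX9 and SOX4 the difference at 1 dpi was the larger one. KLF5 was at -0.38 ± 0.10 and -1.19 ± 0.13 (difference -0.81 ± 0.16, adjusted p = 0.00205). GATA6 was at -0.04 ± 0.39 and -1.90 ± 0.48 (difference -1.86 ± 0.63, adjusted p = 0.0392), with 4 UMIs in Wnt-high cells of library 11 and 42 in its Wnt-low cells. Without library 6, 7 or 11 it was not called (-1.67, -1.57 and -1.09, adjusted p 0.121, 0.142 and 0.274), without library 10 it was -3.12 (0.00823), and with the median -1.21 (0.0860). MYB was at 2.33 ± 0.30 and 2.61 ± 0.28, and a difference between time points was not detectable (0.29 ± 0.47, adjusted p = 0.690).

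**Figure D4:**
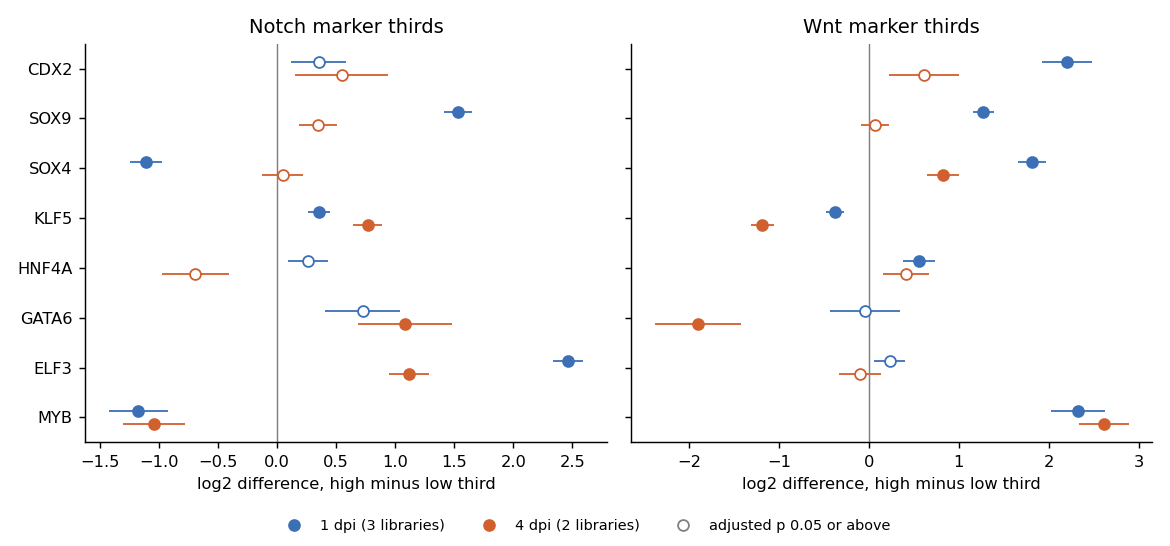
Log2 difference between cells high and low in Notch markers (left) or Wnt markers (right) at 1 dpi and 4 dpi, with standard errors. Filled points passed the edgeR test at that time point, as 54.0% (Notch, 1 dpi), 21.7% (Notch, 4 dpi), 18.1% (Wnt, 1 dpi) and 39.2% (Wnt, 4 dpi) of all genes did. The points of MYB lie close together in both panels, and those of ELF3 (2.46 and 1.11) and SOX9 (1.53 and 0.35) lie apart on the left.

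Across single cells, the factors were only loosely tied to one another. Correlations were taken within each library on log-scaled UMIs per 10000 after the dependence on total UMIs was removed. They are descriptions over cells that share a library, and sparse counts lower them. The mean r over 5 libraries was between -0.17 and 0.34 for the 28 pairs of factors, with a median of 0.05. The highest was SOX9 with ELF3 (0.34, range 0.25 to 0.44), followed by KLF5 with ELF3 (0.28), SOX9 (0.24) and GATA6 (0.23).

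With the summed Notch markers, ELF3 had a mean r of 0.53 (0.66 at 1 dpi and 0.32 at 4 dpi) and SOX9 of 0.39 (0.49 and 0.22). ELF3 and the immediate early sum had 0.60, and that sum and the Notch markers had 0.65. With the Wnt markers, MYB had 0.32 (0.30 and 0.35) and SOX4 0.31 (0.34 and 0.26). SOX9 had 0.38 with the Wnt markers at 1 dpi and -0.05 at 4 dpi, and KLF5 0.04 and -0.38. MYB had 0.24 with the S and G2/M genes.

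**Figure D5:**
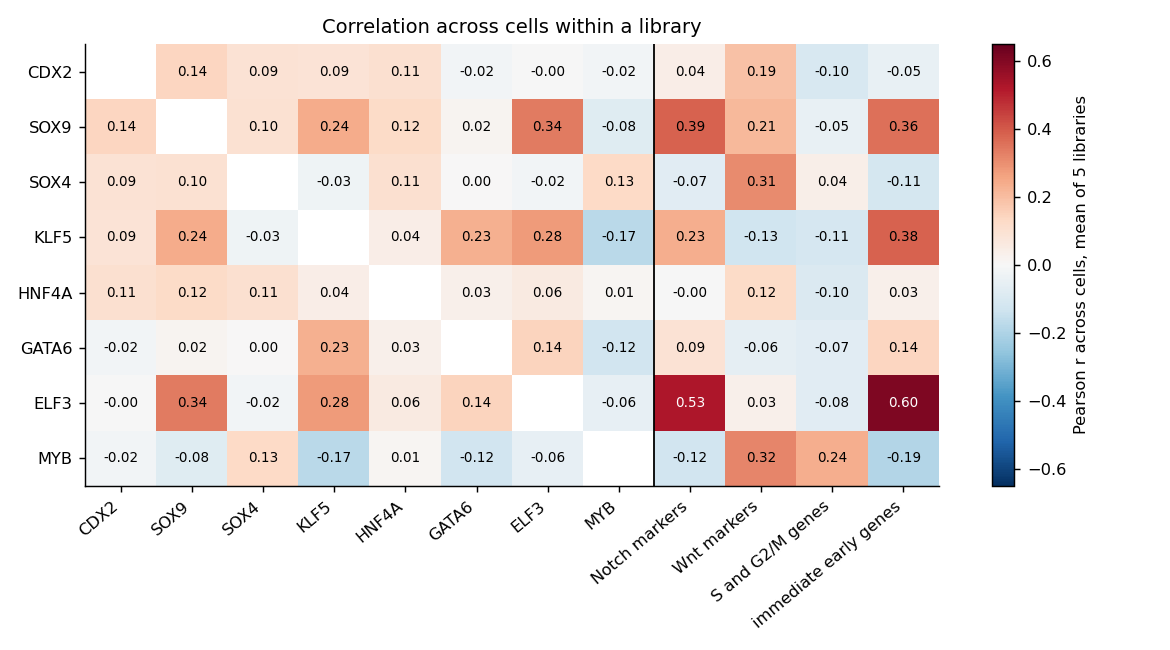
Pearson r across cells, averaged over 5 libraries, of each factor (rows) with the other factors and with 4 summed gene lists (columns). The highest values are those of ELF3 with the immediate early genes (0.60) and the Notch markers (0.53).

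The genes most like each factor across the 826 cells were ranked among 9229 genes by the mean r. For ELF3 these were IER2, JUNB and EGR1 (each 0.52), all immediate early genes, and for KLF5 CEBPB (0.50), GADD45A (0.48) and RSRC2 (0.48). For SOX9 they were TIPARP (0.40), TXNIP (0.39) and ARRDC4 (0.38). SOX4 was closest to PROX1 (0.37), a homeobox factor, BMP4 (0.35) and SYK (0.30). MYB was closest to TUBB (0.38), UHRF1 (0.33), which maintains DNA methylation at replication, and the Wnt marker APCDD1 (0.33). CDX2 was closest to the Wnt marker SP5 (0.23), RASSF7 (0.22) and BMP4 (0.21), and HNF4A to CAMK2N1 (0.28), BAIAP2L2 (0.22) and CLRN3 (0.21). GATA6 was closest to SMCHD1, MAP1B and COG3 (0.26, 0.26 and 0.25). These GATA6 values varied widely between libraries, from -0.02 to 0.52, 0.11 to 0.50 and 0.07 to 0.54.

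Other genes of the same programs were compared between time points, where 27.6% of all genes were called (13.4% higher, 14.2% lower). Of 31 other intestinal transcription factors, 18 were tested, 5 rose and 2 fell. MAF (2.02), PROX1 (1.26) and the ETS factor EHF (0.83) had the largest rises, and SOX2 (-1.55) and MYC (-0.69) fell. MAF and SOX2 were low, with means of 3.25 and 8.46 CPM at 1 dpi and 13.6 and 2.81 at 4 dpi. PROX1 was also higher in Wnt-high cells (2.19, adjusted p = 0.000404) and lower in Notch-high cells (-1.18, 0.000131), the directions that MYB and SOX4 had. Of 28 intestinal differentiation genes, 13 were tested, 5 rose and 1 fell. PHGR1 (2.44), the glycoprotein GPA33 (2.18) and the brush border protein CDHR5 (1.86) rose most, and EPS8L3 (-0.91) fell. GPA33 and CDHR5 rested on few UMIs, with means of 0.838 and 2.01 CPM at 1 dpi and 3.94 and 7.18 at 4 dpi.

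All 9 Notch markers fell, where 14.2% of all genes did, with HES5 (-4.99), HES1 (-3.20) and HEYL (-2.37) at the head. Of 12 Wnt markers, 4 rose and 2 fell (27.6% of all genes were called), led by APCDD1 (1.07), NKD1 (0.59) and ASCL2 (0.48) on the one side and TNFRSF19 (-1.04) and LEF1 (-0.70) on the other. Of 16 immediate early genes, 4 rose and 6 fell, beside the same background. The heat shock genes HSPA1A (1.63) and HSPA1B (0.82) and also ATF3 (0.67) rose, and NR4A1 (-1.43), JUNB (-1.04) and IER3 (-0.96) fell most. The counting is not stated to use strand, and the antisense genes SOX9-AS1 and GATA6-AS1 had 26 and 7 UMIs in all.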

How the data were processed

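Raw UMI counts per gene and well were deposited for 5 plates of SORT-seq, without normalization. The authors read well barcode and UMI from read 1 and aligned read 2 to the human transcriptome with BWA (version not given in the sources used here), and the submitters' processing notes name hg38. Wells were filtered as in the study (over 2000 genes and under 25% mitochondrial UMIs, after 15077 genes listed in all 5 libraries and found in at least 10 wells were kept, 57 of the listed features being ERCC spike-ins, which were left out of totals). No doublet caller was run. The file of well barcodes was not used.

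UMIs were summed per library, or per library and marker group, because cells are not replicates, and tested with edgeR 4.0.16 (quasi-likelihood, two-sided, TMM, filterByExpr, Benjamini-Hochberg over all genes tested, threshold 0.05). SE is the log2 difference divided by the root of F. Notch and Wnt comparisons had the library as a block, and their difference between time points was an interaction term. A marker group and its time effects share cells and libraries. Shares of cells used an exact permutation test, and intervals are exact binomial (95%), covering counting error only, as do floors of 3 counts. The members and gene lists were chosen with earlier results of these data known. Named genes are all 9 factors, up to 3 rises and 3 falls of each list among the genes called between time points, and the 3 genes most like each factor found in at least 20% of cells. PROX1 was followed into the marker comparisons after its values were seen.

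When the tests were run on simulated counts in which 200 genes differed by 1.5 (log2), 89.9% were recovered between time points, 99.0% in the Notch and 89.4% in the Wnt comparison, and 5.29%, 2.99% and 5.85% of calls were unchanged genes. Differences between libraries used as blocks were not simulated, nor were effects by time point. Fewer genes were changed than were called in the data, and most factors differed by less than the simulated size. Alternatives were DESeq2 1.42.0, other scalings, filters and thinning depths, other splits of cells and each library left out. Ranking within immediate early strata, Notch markers without HES1 and the cells low in immediate early genes were added after seeing the data. R 4.3.3, Python 3.11.15 and scipy 1.17.1 were used.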

Additional observations from a re-analysis of the deposited data

Results flagged for a closer look

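The effect of Notch level on 3 factors and of Wnt level on 5 factors differed between 1 and 4 dpi by the test of the difference itself. For the Notch markers the log2 difference of the effects (4 dpi minus 1 dpi) was -1.35 for ELF3, -1.18 for SOX9 and 1.16 for SOX4. For the Wnt markers it was -1.59 for CDX2, -1.86 for GATA6, -0.81 for KLF5, -0.99 for SOX4 and -1.21 for SOX9. Both marker sums themselves differed between the time points, and their part in these differences was not tested.

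Wells that did not pass the filter also held UMIs of the factors. There were 426 at 1 dpi in 619 wells, or 983 CPM against 1344 in the cells that passed, and 792 at 4 dpi in 475 wells, or 563 against 1094 CPM. Of these, 31 and 25 were in wells with under 200 genes.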

How the results depend on the processing

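No paired analysis was possible because libraries 6, 7 and 8 and libraries 10 and 11 share no replicate number. The flow cell, which held plates of both time points, was used as a term instead, and 2 factors were then called higher and 5 lower, with CDX2 added. Of 12646 genes, 1732 were then called higher and 1858 lower. Over the 8 factors and 5 comparisons, 379 of 466 alternative values kept direction and side of the threshold, 52 lost a call, 15 gained one and 20 changed sign. MYB between time points kept its direction under all 19 alternatives and lost its call under ERCC totals only. Between time points, 2 factors were called higher and 4 lower, against 1 and 3 with DESeq2, 0 and 0 with ERCC totals (where 3 genes in all were called), 1 and 2 after thinning to 5000 UMIs, 3 and 1 in cells low in Notch markers, and 1 and 1 in cells low in immediate early genes. All genes called higher and lower were 1181 and 1301 of 12646 with DESeq2, and 600 and 534 of 8806 after thinning. They were 847 and 799 of 11490 in cells low in Notch markers, and 915 and 797 of 11058 in cells low in immediate early genes. Leaving out a library gave 1 to 2 higher and 3 to 5 lower, where 1155 to 1440 of all genes were higher and 1197 to 1500 lower. SOX9 was at 0.032 and 0.0085 in the cells low in Notch markers and in immediate early genes, SOX4 at -0.27 and -0.26, ELF3 at 0.51 and 0.35, and HNF4A at 0.031 in the latter.

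For the Notch split, 4 higher and 2 lower became 2 and 1 after thinning (where 4 factors were tested) and 2 and 0 within immediate early strata, with KLF5 at -0.11. All genes called higher and lower were 448 and 269 of 4793 after thinning, and 671 and 350 of 9949 within these strata. Without the library block 1 was lower (MYB missed the threshold at an adjusted p of 0.0530), and without a library 1 to 2 were. Of all genes, 1807 of 10198 were lower without the block, and 1603 to 2360 without a library. HNF4A, not called, was at 0.0091 without the block, 0.0074 with all cells parted at the median and 0.013 within cell cycle strata, and at -0.22 to 0.14 without a library. For the Wnt split, 1 factor instead of 0 was lower with DESeq2, without the block and within immediate early strata, and ELF3 was at -0.066 to 0.23 without a library. Genes called lower were 432 and 524 of 10045 with DESeq2 and without the block, and 710 of 9958 within these strata. Of the effects by time point, the Notch effect had 1 higher, and 0 with the median or after thinning, and 2 lower against 1 after thinning. Of all genes, 287 of 10918 were higher with the median, and 54 of 4793 higher and 55 lower after thinning. The Wnt effect had 5 lower, against 2 with the median, 1 after thinning and 3 to 4 without a library. Genes called lower were 953 of 10946 with the median, 401 of 4755 after thinning and 825 to 1294 without a library. GATA6 by Notch was at -0.32 with the median and -0.032 to 0.59 without a library, MYB by Notch at -0.071 to 0.25 without a library, MYB by Wnt at -0.052 with the median and -0.011 to 0.58 without a library, and HNF4A by Wnt at 1.19 after thinning. Thinning leaves fewer counts, and fewer factors then pass the filter in the splits. For the other changes the cause was not tested. All genes called ranged from 3 to 3808 between time points (3485 in the comparison as reported), 717 to 5091 by Notch level (4773), 205 to 1293 by Wnt level (752), and 109 to 545 (698) and 849 to 2564 (2793) for their effects by time point. Of the factors' shares of cells, 5 did not overlap between time points, and 4 did not when cells were unthinned or thinned to 3000 UMIs. The share of all genes without overlap was not computed for this measure. SOX9 and SOX4 overlapped in both of these settings and HNF4A in neither, while at 3000 UMIs CDX2 overlapped and GATA6 did not. The SOX4 difference was -0.59 percentage points unthinned and 1.73 at 3000 UMIs. Factors with few UMIs, GATA6 and CDX2 above all, are limited by depth.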
